A study of Mus musculus with 2 samples.

Results

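The bone-forming spots of a healing mouse skull were chosen by measured RNA: they are the 100 spots of each of 2 tissue sections with the highest share of their RNA in 5 osteoblast genes, 200 spots of 4720 kept in both sections. Both sections came from the calvaria, which roofs the brain, frozen and cut 7 days after a bone defect was made. The defect of the Blank section was left without material, and that of the Col_nHA section was filled with collagen/nHA material. Strain, sex and age are not given in the sources used here, and each group held 1 library, so every comparison is between 2 libraries, no p-value is given, and an effect of the material cannot be told apart from a difference between animals or between the places cut. RNA was counted as unique molecular identifiers (UMIs), each standing for 1 captured transcript, on an array of barcoded spots, where a spot can hold several cells or part of one.

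Osteoblasts line the surface of growing bone and secrete osteoid, a matrix made mostly of type I collagen, which they then mineralise with the help of phosphatases, phosphate and calcium transporters, and acidic matrix proteins. Commitment to the lineage runs through the transcription factors Runx2 and Sp7. Bone sialoprotein, encoded by Ibsp, is made while mineral first forms, and osteocalcin, encoded by Bglap and Bglap2, is a product of mature osteoblasts. Ifitm5 encodes a small membrane protein of mineralising osteoblasts. Some osteoblasts become enclosed in the matrix as osteocytes, which make Dmp1, Phex, Mepe and Sost.

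A spot was kept if it held at least 3667 UMIs in Blank or 4690 in Col_nHA, which left 2249 and 2471 spots. Kept spots were ranked by the summed UMIs of Bglap, Bglap2, Ibsp, Ifitm5 and Sp7 over all UMIs of the spot. The score of the first spot was 79969 marker UMIs per 1000000 UMIs (CPM) in Blank and 41577 in Col_nHA, and that of the 50th was 10550 and 5587. The last 5 spots taken in Blank had 5563, 5556, 5526, 5490 and 5293 CPM of marker UMIs, and the next 5, left out, had 5273, 5244, 5231, 5115 and 4957. In Col_nHA the last 5 had 2586, 2572, 2572, 2566 and 2552, and the next 5 had 2500, 2471, 2462, 2431 and 2430. The score fell without a gap at either boundary, and the Col_nHA boundary lay lower. A common lowest score of 5293 CPM kept 53 of the 100 Col_nHA spots.

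The bone-forming spots held 1152660 UMIs in Blank, with 3795 in the lowest spot, a median of 8348 and 46605 in the highest. In Col_nHA they held 1525530 UMIs, with 4726 in the lowest spot, a median of 13457 and 43598 in the highest. The other kept spots had medians of 9805 and 13888 UMIs. Mitochondrial genes took 4.33% of the UMIs of bone-forming spots in Blank and 6.31% in Col_nHA, against 3.64% and 4.53% in other kept spots. The same 4992 barcodes, which are positions on the array, occur in both files, and 3 of them were bone-forming in both sections. Levels below are CPM of all spots of a set summed, and ratios of levels carry an exact 95% interval that covers counting error only. In a spot, fewer cells of a type and less RNA per cell cannot be told apart.

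The 250 bases before the start sites of 3 genes are shown because the sections differed in the balance between the first and the second, while the third was high in bone-forming spots of both. The sequences are from RefSeq on GRCm38.p6, 5′ to 3′ on the strand of the gene. They are Bglap at chr3:88384467-88384716 on the minus strand, Ibsp at chr5:104299037-104299286 on the plus strand and Col11a2, a collagen chain gene, at chr17:34038888-34039137 on the plus strand. Capitals mark the Runx core ACCACA, the homeodomain core TAATTA, the TATA box core TATAAA and the cAMP-response core TGACGT, each searched on both strands.
Bglap: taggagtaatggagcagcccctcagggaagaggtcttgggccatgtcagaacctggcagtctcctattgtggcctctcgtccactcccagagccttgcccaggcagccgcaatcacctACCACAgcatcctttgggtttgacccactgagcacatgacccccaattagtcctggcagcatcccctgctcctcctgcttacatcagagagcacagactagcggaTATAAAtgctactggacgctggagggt
Ibsp: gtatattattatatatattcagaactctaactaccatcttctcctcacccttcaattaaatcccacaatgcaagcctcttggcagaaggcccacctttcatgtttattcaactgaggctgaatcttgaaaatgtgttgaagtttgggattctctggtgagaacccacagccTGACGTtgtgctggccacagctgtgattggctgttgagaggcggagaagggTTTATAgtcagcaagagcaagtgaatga
Col11a2: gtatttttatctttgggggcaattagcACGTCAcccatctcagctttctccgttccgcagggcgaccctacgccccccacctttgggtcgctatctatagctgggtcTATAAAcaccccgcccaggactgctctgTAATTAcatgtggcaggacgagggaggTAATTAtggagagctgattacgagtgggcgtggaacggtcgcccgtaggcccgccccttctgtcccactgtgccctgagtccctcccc
In the same build Bglap spans chr3:88383495-88384466, Bglap2 chr3:88377736-88378701, Ibsp chr5:104299287-104311472, Ifitm5 chr7:140948958-140950243 and Sp7 chr15:102356603-102367035, all protein-coding. Col11a2, also protein-coding, spans chr17:34038919-34066684. Most of its printed window therefore lies inside the annotated gene, before the start site used for the window. The Bglap promoter held ACCACA at -132 and TATAAA at -27 from the start site. That of Ibsp held TGACGT at -79 and TTTATA, the reverse of TATAAA, at -28, and none of its letters matched the Runx core. In Col11a2 the palindrome TAATTA occurred at -115 and -88 from the start site used, both inside the annotated gene span. Among 32851 promoter windows of 300 bases, 16.8% held the Runx core, 13.6% the TATA box core, 7.51% the cAMP-response core and 5.29% the homeodomain core. These matches are descriptions of letters, and binding was not measured.

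All 5 marker genes were high in the spots of both sections, but in different proportions. Bglap stood at 11810 CPM in Blank bone-forming spots and 139.8 in the other kept spots, and at 4105 and 80.7 CPM in Col_nHA. Its level per spot ran from 480 CPM over a median of 6397 to 52792 in Blank, and from 0 over 2087 to 28941 in Col_nHA. Bglap2, its neighbour on chromosome 3, stood at 5152 CPM in Blank and 1860 in Col_nHA. The pair is nearly identical in sequence, so the division of UMIs between them is uncertain and their sum is used below. Ibsp ran the other way, at 1128 CPM in Blank bone-forming spots, with a median spot of 498, and at 3013 CPM in Col_nHA, with a median spot of 904 and a highest of 18975. Ifitm5 stood at 223.8 and 322.5 CPM, and Sp7 at 183.9 and 183.5 CPM. These levels chose the spots and are given as a description.

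Not every bone-forming spot held all 5 markers. At least 1 UMI of each was found in 44 Blank and 52 Col_nHA spots, and 2 or fewer of the 5 genes were found in 9 and 3 spots. Each gene was also high in spots ranked without it. With both osteocalcin genes left out of the score, Bglap was 26.2-fold higher in the 100 first spots than in the others in Blank and 16.7-fold in Col_nHA, although only 52 and 62 of the spots were the same. With Ibsp left out, Ibsp was 14.2-fold and 15.9-fold higher, with 96 and 73 spots the same. With Ifitm5 and Sp7 left out, Ifitm5 was 34.8-fold and 41.0-fold higher and Sp7 27.2-fold and 20.9-fold, with 99 and 95 spots the same. Most of these spots were thus among those the left-out genes had helped to choose, and the ratios are a description. The bone-forming spots held 60.7% of the marker UMIs of the Blank file and 54.1% of those of Col_nHA.

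**Figure D1:**
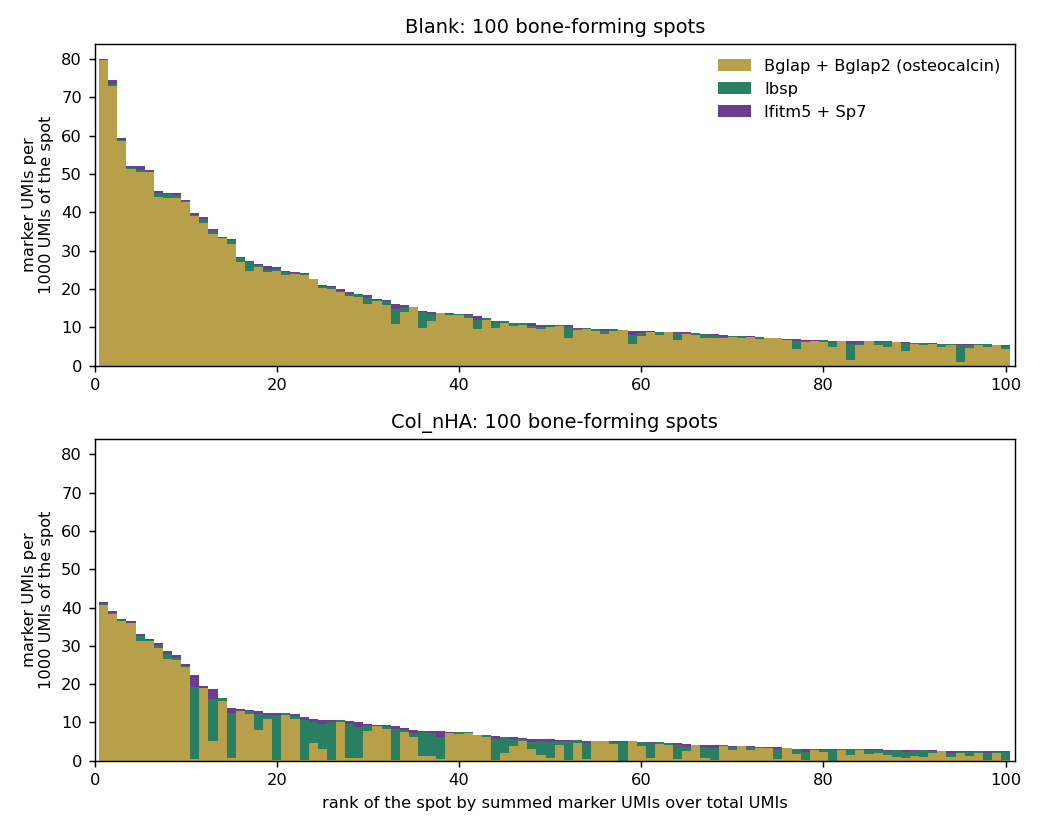
Marker UMIs per 1000 UMIs of each bone-forming spot (y axis), by rank (x axis), in Blank (top) and Col_nHA (bottom), stacked by gene. Osteocalcin fills nearly every Blank bar, while 36 Col_nHA bars, between ranks 11 and 100, are mostly Ibsp.

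The make-up of the score differed between the sections. Ibsp gave 6.10% of the marker UMIs of the Blank spots and 31.8% of those of Col_nHA, and there were 15 osteocalcin UMIs for each Ibsp UMI in Blank and 1.98 in Col_nHA, as counts not scaled to gene length. Spots with more Ibsp than osteocalcin UMIs, called Ibsp-led, numbered 2 in Blank, at ranks 83 and 95, and 36 in Col_nHA, at ranks 11 to 100 with a median of 51. The other 98 and 64 spots are called osteocalcin-led. Both Blank Ibsp-led spots were the deepest of the 100, with 46605 and 37501 UMIs. The first of them held 199 Ibsp, 42 Bglap and 24 Bglap2 UMIs, and the spot at rank 11 of Col_nHA held 505, 5 and 4. At the common lowest score, 19 of the 53 Col_nHA spots left were Ibsp-led.

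Beside the markers, a set of bone matrix, mineral and signalling genes was high in the bone-forming spots of both sections. Of 7184 genes with at least 20 CPM in either set of spots, 165 were at least 2-fold higher in Blank bone-forming spots than in other kept spots (2.30%) and 698 at least 2-fold lower (9.72%). Of 7163 genes in Col_nHA, 156 were higher (2.18%) and 427 lower (5.96%). Scaling by TMM, which assumes that most genes do not differ, moved the median gene up by 0.24 log2 in Blank and 0.14 in Col_nHA and gave 242 higher against 424 lower, and 196 against 269. The sections shared 106 higher genes, 64.2% of the Blank list and 68.0% of the Col_nHA list, which is 1.58% of the 6703 genes counted in both. Another 187 were lower in both (2.79%), and 4 were lower in Blank and higher in Col_nHA. The ranking used this same contrast, so nothing is read from these shares.

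The ratios named next are levels in bone-forming spots over levels in other kept spots, Blank first. Slc13a5, a plasma membrane citrate transporter, was 34.1-fold (95% interval 26.8 to 43.4) and 40.1-fold (32.7 to 49.4) higher. Smpd3, a sphingomyelinase needed for matrix mineralisation, was 24.7-fold and 34.8-fold higher, and was seen in 43% and 48% of spots thinned to 3000 UMIs, against 4.93% and 3.21% of other kept spots. Alpl, tissue-nonspecific alkaline phosphatase, which frees phosphate for mineral, stood at 508.4 and 611.6 CPM, 13.0-fold and 17.9-fold higher. Sgms2, a sphingomyelin synthase, was 19.5-fold and 14.9-fold higher. None of these 4 enzymes and transporters had been used in the score. The rule that named genes took them by ratio or level in bone-forming spots, so their high values are a description.

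**Figure D2:**
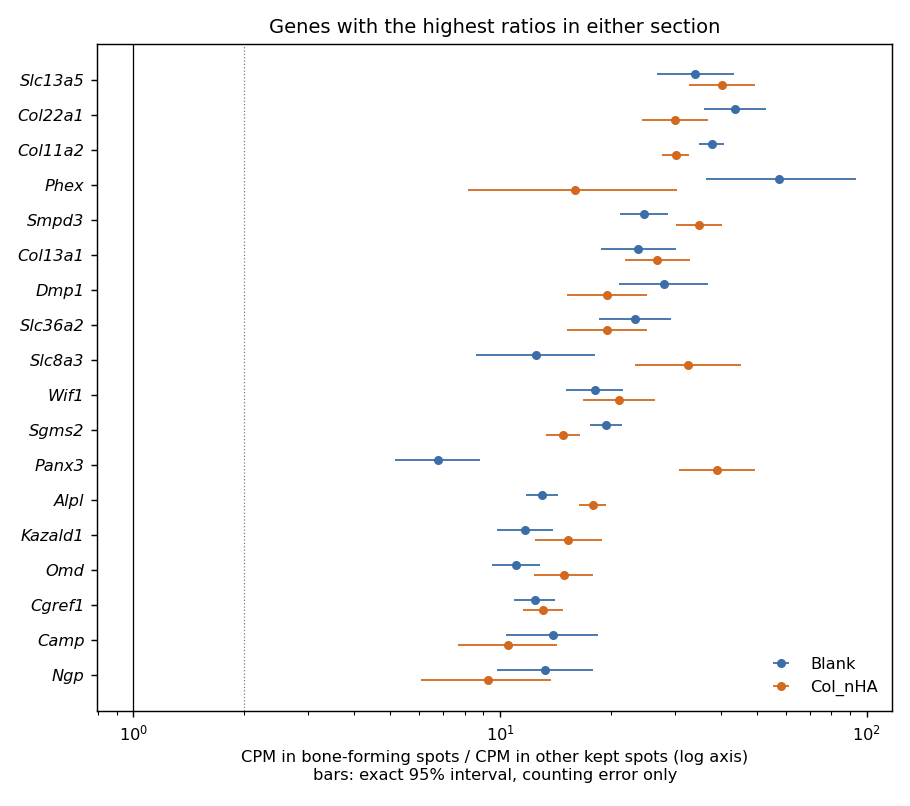
Ratio of the level in bone-forming spots to that in other kept spots (log x axis) for genes among the 15 highest of either section, Blank in blue and Col_nHA in orange, with 95% counting intervals. All ratios lie above 6, and Phex and Panx3 show the widest gaps between the sections.

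The 10 genes of the mineral deposition list took 0.117% of the UMIs of bone-forming spots in Blank and 0.0223% of those of other kept spots, and 0.127% and 0.0297% in Col_nHA, ratios of 5.24 and 4.27. Such sums cover every member found. Counts and medians of a list cover only members with 20 CPM in either set, and a member that reached 20 CPM in 1 set alone is higher there by that choice. In this list 5 of 9 measured members in Blank and 4 of 8 in Col_nHA were at least 2-fold higher, of which 4 and 3 reached 20 CPM in bone-forming spots alone. Slc8a3, a sodium-calcium exchanger, was 12.5-fold higher in Blank and 32.4-fold in Col_nHA. Panx3, a channel protein of osteoblasts and hypertrophic cartilage, was 6.79-fold (5.16 to 8.83) higher in Blank and 39.0-fold (30.8 to 49.5) in Col_nHA. Phex, a peptidase of osteoblasts and osteocytes that keeps phosphate levels up, was 57.7-fold (36.4 to 93.5) higher in Blank and 16.0-fold (8.16 to 30.4) in Col_nHA. The last pair differed between the sections in opposite ways. In Col_nHA, 2 members of the list were at least 2-fold lower: the phosphate transporter Slc20a1, at a ratio of 0.411, and Enpp1, which makes pyrophosphate, an inhibitor of mineral, at 0.425.

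Collagen genes took 18.6% of all UMIs of Blank bone-forming spots and 12.3% of those of Col_nHA, against 8.12% and 5.96% in other kept spots. Per spot the share ran from 8.84% over a median of 14.9% to 36.4% in Blank, and from 1.46% over 11.3% to 23.1% in Col_nHA. In each section 7 of 12 members were at least 2-fold higher, 3 of them with 20 CPM in bone-forming spots alone, and the other 5 were not. Col1a1, the main chain of type I collagen, stood at 93611 CPM in Blank and 55435 in Col_nHA, 3.22-fold and 2.81-fold higher. The fold was larger than that of Col1a1 for some chains of low level, among them 3 named here: Col11a2, at 1370 and 795.8 CPM, was 37.7-fold and 30.1-fold higher, Col22a1 was 43.6-fold and 29.9-fold and the transmembrane collagen Col13a1 was 23.8-fold and 26.8-fold. Col11a2 was present in 93 of 100 spots in each section. Col3a1, the collagen of soft connective tissue, was at ratios of 0.608 and 0.909, so not all collagen was high here. Folding and cross-linking enzymes had median log2 ratios of 0.46 and 0.37, with 1 member at 2-fold, P4ha1, in Blank only by that threshold, at 2.07 in Blank and 1.49 in Col_nHA.

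The 10 transcription factors of the lineage took 0.0911% of UMIs in Blank bone-forming spots against 0.0484% in other kept spots, and 0.0901% against 0.0551% in Col_nHA, ratios of 1.88 and 1.64. In each section 5 members were at least 2-fold higher, and 4 in Blank and 3 in Col_nHA reached 20 CPM in bone-forming spots alone. Dlx3 was 12.7-fold and 22.1-fold higher, and Dlx5 10.3-fold and 9.10-fold, both homeodomain factors. Runx2, the master regulator of the lineage, was 3.10-fold and 2.70-fold higher, and Atf4, expressed widely, was at 0.985 and 0.965. In the other kept spots of either section both Dlx genes stood at 4.47 CPM or less, while Runx2 stood at 32.2 CPM in those of Blank.

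Single genes of signalling pathways were also high. Wif1, a secreted Wnt antagonist, was 18.1-fold and 21.1-fold higher, and Tcf7, a factor that carries out Wnt responses, 8.44-fold and 13.0-fold. The Wnt list as a whole was near level, at ratios of summed UMIs of 1.06 and 1.14. Of its measured members, 3 of 12 and 2 of 10 were at least 2-fold higher. All of these reached 20 CPM in bone-forming spots alone, so they were higher there by that choice. Bmp3, a member of the BMP family that opposes bone formation, was 7.01-fold and 11.5-fold higher. The receptor of parathyroid hormone, Pth1r, was 5.14-fold and 7.06-fold higher, and the fibroblast growth factor receptor Fgfr3 2.26-fold and 6.29-fold. Each of these genes was on the same side in both sections. They were named by level or ratio, or after their values were seen, so this is a description. Most members of the Wnt and BMP lists were not 2-fold higher.

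The 12 osteocyte genes took 0.0426% of UMIs in Blank bone-forming spots and 0.0237% in other kept spots, a ratio of 1.80, and 0.0296% and 0.0277% in Col_nHA, a ratio of 1.07. In Blank 9 members and in Col_nHA 4 reached 20 CPM in either set, 7 and 2 of them in bone-forming spots alone. Dmp1, an acidic matrix protein of young osteocytes, was present in both, at 96.3 and 76 CPM, 27.9-fold and 19.6-fold higher. Mepe, a matrix protein, had 27 UMIs in Blank spots and 5 in Col_nHA, and Sost, the Wnt inhibitor of mature osteocytes, 15 and 1. Of the 27 Mepe UMIs, 10 came from the spot at rank 8. Pdpn, a membrane protein found on early osteocytes and on many other cells, was at 0.369 in both sections, and its 169.5 and 201 CPM made up most of the list's UMIs in other kept spots.

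The 12 non-collagen matrix genes took 3.57% of UMIs in Blank bone-forming spots against 1.81% in other kept spots, and 2.52% against 2.08% in Col_nHA, ratios of 1.97 and 1.21. Of the measured members, 5 of 11 in Blank and 2 of 8 in Col_nHA reached 20 CPM in bone-forming spots alone. Omd, a keratan sulphate proteoglycan of bone, was 11.0-fold and 14.9-fold higher, and Sparc, a collagen-binding protein, 2.28-fold and 2.07-fold. Of the measured members, 10 of 11 in Blank and 6 of 8 in Col_nHA were above 1. Spp1, encoding osteopontin, which osteoblasts, osteoclasts and macrophages all make, lay on different sides of 1 in the sections. It stood at 2230 CPM in Blank bone-forming spots and 1452 in other kept spots, but at 3574 and 8692 in Col_nHA. The ratio was therefore 1.54 (1.48 to 1.60) in Blank and 0.411 (0.400 to 0.422) in Col_nHA.

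**Figure D3:**
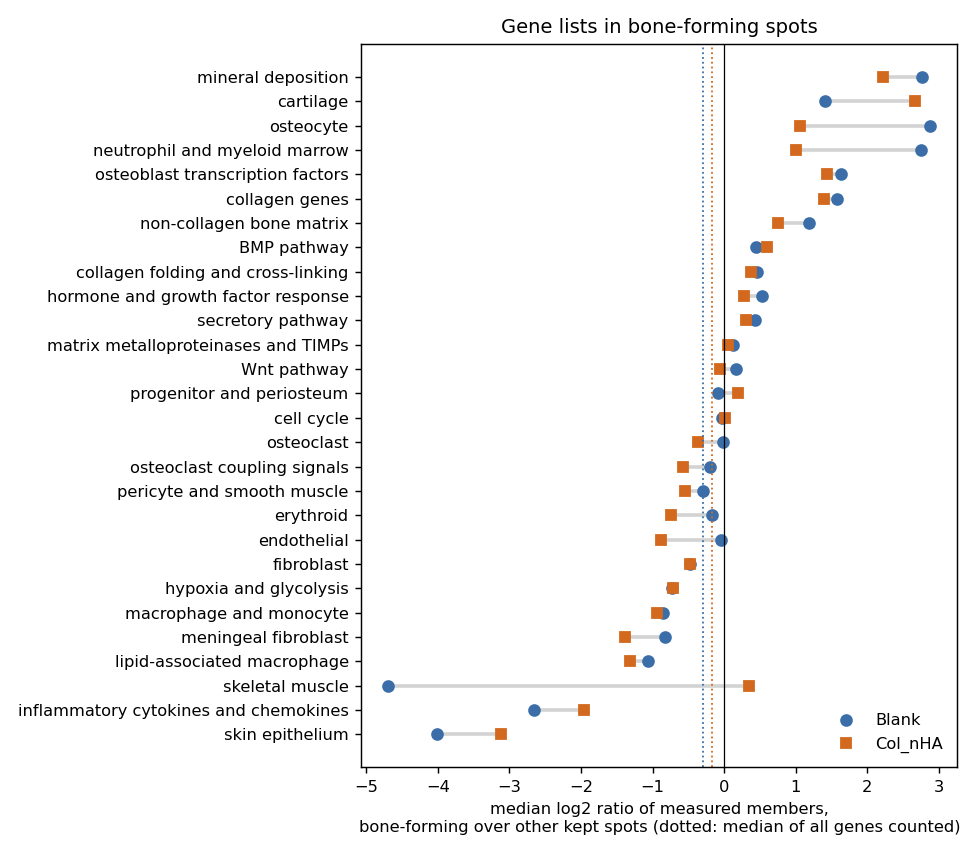
Median log2 ratio of the measured members of each gene list, bone-forming over other kept spots (x axis), with Blank as blue circles and Col_nHA as orange squares and dotted lines at the medians of all genes counted. Members with 20 CPM in 1 set alone are included, so a median can lie further out than the list as a whole. Skeletal muscle stands at -4.69 in Blank and 0.34 in Col_nHA.

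Lists of other cell types lay on both sides of 1. Of 11 macrophage and monocyte genes, 2 in Blank and 5 in Col_nHA were at least 2-fold lower and none higher, with median log2 ratios of -0.85 and -0.94, beside -0.30 and -0.17 over all genes counted. C1qb, a complement component of macrophages, was at 0.515 and 0.423, and Lyz2, lysozyme, at 0.460 and 0.461. Lipid-associated macrophage genes had medians of -1.07 and -1.31, and the skin epithelium genes took 0.0220% and 0.0169% of UMIs against 0.322% and 0.155% in other kept spots. Inflammatory cytokines and chemokines took 0.00651% of UMIs against 0.0287% in Blank and 0.0151% against 0.0608% in Col_nHA, ratios of 0.226 and 0.248. Of their 12 members 5 and 6 were measured, 4 and 3 of these through other kept spots alone. Endothelial genes had a median of -0.04 in Blank and -0.88 in Col_nHA. The adipose share per spot in Blank had a median of 0.0344% and a highest value of 0.287% in bone-forming spots, and a median of 0.0219% and a highest value of 3.85% in other kept spots. Brain and choroid plexus genes had a median of 0.0674% and a highest value of 4.75% in Blank bone-forming spots, and 0.0858% and 38.2% in other kept spots. In both lists the medians of the 2 sets were closer than their highest spots. Cell cycle genes had median log2 ratios of -0.03 and 0.01. Among periosteal and progenitor genes, which had medians of -0.08 and 0.19, Postn, a matrix protein of periosteum, was at 0.597 in Blank and 1.18 in Col_nHA.

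Cartilage genes were low in absolute level and higher in bone-forming spots. The 11 genes took 0.0187% of UMIs against 0.0101% in other kept spots of Blank and 0.0252% against 0.00727% in Col_nHA, ratios of 1.86 and 3.47. Of 4 measured members in each section, 2 reached 20 CPM in bone-forming spots alone. Of the defining markers, Col2a1, the main collagen of cartilage, stood at 1.74 and 1.97 CPM in bone-forming spots, and Col10a1, of hypertrophic cartilage, at 5.21 and 0. Cartilage cells also make Panx3, Col9a1 and Mmp13, and the part of such cells in the levels of those genes was not tested.

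RNA of genes known from osteoclasts, the cells that resorb bone, was found in the same spots. The osteoclast list had medians of -0.01 over 9 members in Blank and -0.37 over 10 in Col_nHA, with 1 member and none at least 2-fold higher. Its summed UMIs were at 1.43 and 1.12. Only 4 of the 9 and 3 of the 10 members were above 1, and Acp5, Ctsk and Mmp9 were among them. The part of osteoclasts in these levels was not tested. Acp5, an acid phosphatase of osteoclasts, stood at 692.3 and 1079 CPM, 1.85-fold and 1.22-fold higher than in other kept spots. An Acp5 UMI was found in 60% and 86% of bone-forming spots thinned to 3000 UMIs, and in 41.7% and 60.1% of the other kept spots. Ctsk, the collagen-cleaving protease of osteoclasts, was at 1.20 and 1.14, and Mmp9 at 2.43 and 1.32. Mmp13, the collagenase of osteoblasts and hypertrophic cartilage cells, stood at 491 and 749 CPM, 1.80-fold and 2.08-fold higher, and 123 of its 566 Blank UMIs came from the Ibsp-led spot at rank 95.

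Neutrophil and myeloid marrow genes were high in a few spots. Over all 12 genes they took 0.0959% of UMIs against 0.0218% in other kept spots of Blank and 0.0564% against 0.0324% in Col_nHA, ratios of 4.40 and 1.74. Of the measured members, 4 of 7 and 2 of 5 reached 20 CPM in bone-forming spots alone. Camp, an antimicrobial peptide of neutrophil precursors, had 77 UMIs in 19 Blank spots and 61 in 12 Col_nHA spots. The 3 highest spots held 55.8% and 70.5% of them. S100a8, a granulocyte protein, had 437 UMIs in Blank, 126 of them in the spot at rank 70, and 354 in Col_nHA, 69.8% of them in 3 spots. The list's share of UMIs ran from 0 over a median of 0.00859% to 6.26% per spot in Blank, and from 0 over 0.00890% to 1.01% in Col_nHA. The median spot therefore held almost none of it.

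The order of spots within the 100 separated genes that followed the score from genes that did not. From ranks 1 to 25 to ranks 76 to 100, Col1a1 stood at 124816 and 63982 CPM in Blank and at 80777 and 38638 in Col_nHA, and it was at 45850 and 24962 in ranks 101 to 200. Col11a2 stood at 1934 and 739 CPM in Blank and at 1477 and 340 in Col_nHA at the same ranks. Wif1 went from 380 to 48.5 CPM in Blank, and Col22a1 went from 409 to 101. Dmp1 and Panx3 did not follow the score in Blank. Dmp1 was at 74.1 CPM in ranks 1 to 25 and 142 in ranks 76 to 100. The Ibsp-led spot at rank 83 held 24 of the 38 Dmp1 UMIs of ranks 76 to 100, so that level rested mostly on 1 spot. Panx3 was at 41.9 CPM in ranks 1 to 25, 88.3 in ranks 26 to 50 and 52.3 in ranks 76 to 100. Pth1r changed little in Blank, from 409 to 340 CPM. Col3a1 ran against the score in Blank, at 7769 CPM in ranks 1 to 25 and 15666 in ranks 76 to 100, and C1qb at 222 and 429.

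Between the bone-forming spots of the sections the highest ratios were those of muscle genes, while Col1a1 and Col1a2 stood lower in Col_nHA. Of 6759 genes counted, 385 stood at least 2-fold higher in Col_nHA (5.70%) and 140 at least 2-fold lower (2.07%). TMM scaling gave 331 and 201. In the other kept spots 115 of 7279 were higher (1.58%) and 203 lower (2.79%). The median gene had a log2 ratio of 0.12 in bone-forming spots and 0.03 in the others.

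The 12 highest genes by the naming rule were all genes of muscle, led by Myh4, a fast myosin heavy chain, at 2.60 CPM in Blank and 972.8 in Col_nHA. Mb, myoglobin, was 135-fold (77.1 to 262) higher, Ckm, muscle creatine kinase, 109-fold, and Ckmt2, with 0 UMIs in Blank, at least 77.6-fold higher against a floor of 3 counts over the set. All 12 skeletal muscle genes were at least 2-fold higher, 8 of them with 20 CPM in Col_nHA alone, and the list took 0.0247% of UMIs in Blank and 1.63% in Col_nHA. Muscle UMIs per spot ran from 0 over a median of 0.0207% to 0.385% in Blank and from 0 over 0.0659% to 17.2% in Col_nHA. In 13 Col_nHA spots, 12 of them osteocalcin-led, muscle genes took over 2% of UMIs, and in no Blank spot. Without the 13 Col_nHA and 2 Blank spots rich in muscle, skin, fat, brain or choroid plexus genes, 316 genes were higher and 140 lower, and 208 of the 316 were among the 385.

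Bone genes differed less. Col1a1 was at 0.592 (0.587 to 0.598) of its Blank level, Col1a2 at 0.644, Sparc at 0.662 and Col11a2 at 0.581 (0.539 to 0.626). The collagen list had a median log2 ratio of -0.44 over 12 measured members in bone-forming spots and -0.44 over 9 in other kept spots. Its summed UMIs were at ratios of 0.661 and 0.734. Summed UMIs of the mineral deposition list were at a ratio of 1.09 and those of the transcription factors at 0.990, with Alpl at 1.20 (1.08 to 1.34), Smpd3 at 0.974 (0.845 to 1.12), Slc13a5 at 1.15 (0.941 to 1.41) and Runx2 at 0.841 (0.649 to 1.09). The counting intervals of Smpd3, Slc13a5 and Runx2 include 1. Panx3 was 1.92-fold (1.45 to 2.56) higher in Col_nHA bone-forming spots but at 0.334 in other kept spots. Acan, the aggregating proteoglycan of cartilage, stood at 59.9 CPM in Blank and 120 in Col_nHA bone-forming spots, but at a ratio of 0.686 in other kept spots.

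Phex was the 1 mineral gene at least 2-fold lower in Col_nHA bone-forming spots. It reached 20 CPM in Blank alone, so it was counted through the set where it was higher. Phex had 63 UMIs in 29 Blank spots and 17 UMIs in 13 Col_nHA spots, 54.7 and 11.1 CPM, a ratio of 0.204 (0.112 to 0.353). In other kept spots the ratio was 0.737, and among osteocalcin-led spots alone it was 0.318 (0.167 to 0.567). In spots thinned to 3000 UMIs, a Phex UMI was found in 13% of the Blank and 3% of the Col_nHA bone-forming spots. No single spot carried this, since the highest held 9 UMIs in Blank and 3 in Col_nHA. The non-collagen matrix list took 2.52% of UMIs in Col_nHA and 3.57% in Blank, a ratio of 0.708. Of its members, 4 were at least 2-fold lower, and 3 of the 11 measured reached 20 CPM in Blank alone. Among the 4 were Mgp, matrix Gla protein, an inhibitor of mineral, at 0.436, and Chad, chondroadherin, at 0.329. The osteocyte genes together took 0.0296% in Col_nHA and 0.0426% in Blank, a ratio of 0.694, and 5 of their 9 measured members reached 20 CPM in Blank alone.

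Among the other lists, the erythroid genes had a median of -2.07 with 4 of 5 at least 2-fold lower, against -1.13 in other kept spots, and Hbb-bs, a haemoglobin chain, stood at 2250 CPM in Blank and 508.7 in Col_nHA. Cell cycle genes had a median of 0.96 in bone-forming spots, with 5 of 10 at least 2-fold higher, and 0.85 in the others, with 3 of 11. In each case 3 of the measured members reached 20 CPM in Col_nHA alone. Mki67, a protein of dividing cells, stood at 18.2 and 59.7 CPM. Lipid-associated macrophage genes had medians of 0.64 and 0.66, and osteoclast genes 0.55 and 0.74, with 0 of 9 and 4 of 10 osteoclast genes at least 2-fold higher. Whether these lists differed between bone-forming and other spots in their ratio was not tested. Endothelial genes had a median of -0.49 in bone-forming spots and 0.32 in the others. Fibroblast genes had medians of -0.79 and -0.76. Of single genes among the 12 lowest, Ttr, a choroid plexus secretory protein, stood at 1304 CPM in 97 Blank spots with a UMI and at 9.83 CPM in Col_nHA. It was at 11196 CPM in the other kept Blank spots, and the part of RNA from that tissue in the Blank bone-forming spots was not tested. Others were Pi16, a fibroblast protein, at 0.293, Igfbp2, an IGF-binding protein, at 0.352, and Mfap4, a microfibril protein, at 0.383.

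**Figure D4:**
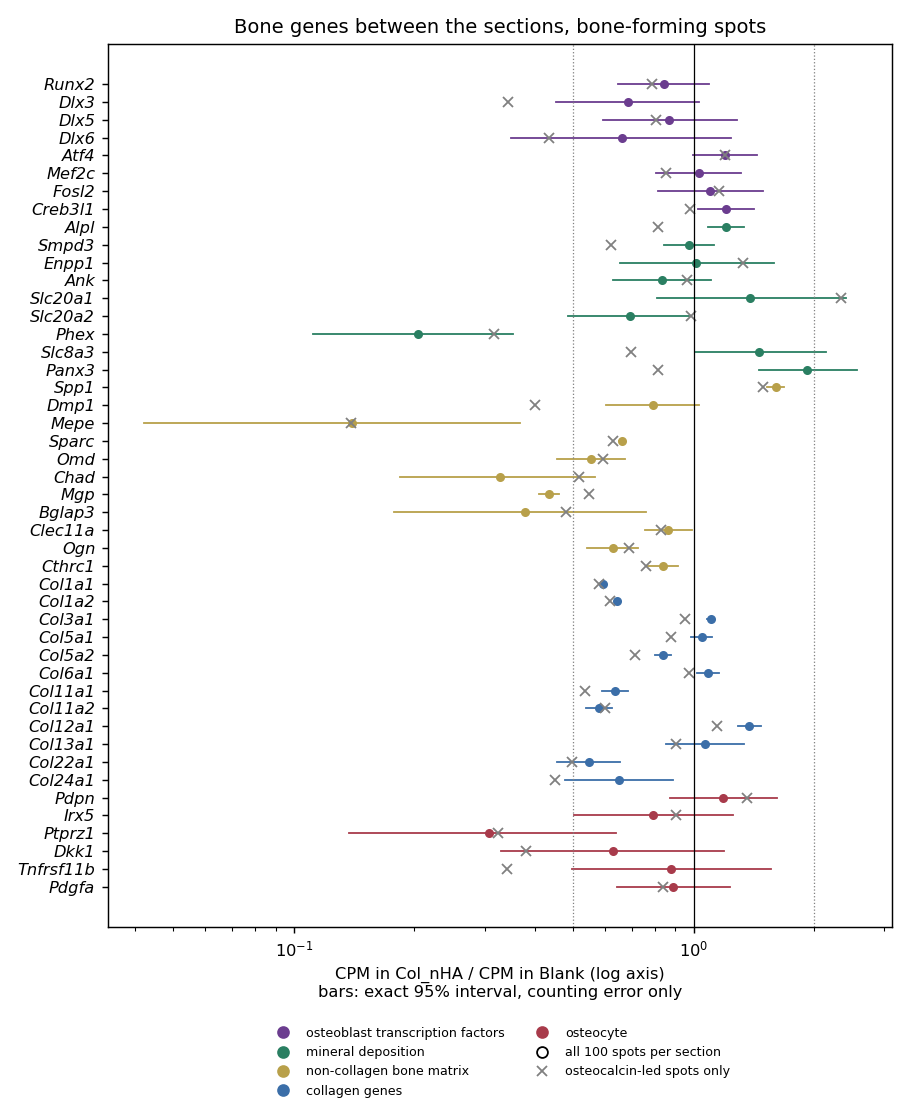
Ratio of Col_nHA to Blank level (log x axis) for the bone list genes shown, each with at least 20 CPM in either set of bone-forming spots, coloured by list with 95% counting intervals; crosses are the same ratio among osteocalcin-led spots. Most genes lie between 0.5 and 2, with Phex at 0.204 and Panx3 at 1.92.

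The 36 Ibsp-led spots of Col_nHA were then set beside the 64 osteocalcin-led spots of the same section, a division made after the data were seen. Of 6965 genes counted, 401 were at least 2-fold higher in the Ibsp-led spots (5.76%) and 433 lower (6.22%). TMM gave 274 and 547. The Ibsp-led spots were deeper, with a median of 20444 UMIs against 11163, and 1 of them against 12 was rich in muscle genes. Without spots rich in other tissues 289 genes were higher (4.15%) and 308 lower (4.42%), and 236 and 182 genes passed both ways. The ratios below are those without such spots. The part of depth in them was not tested.

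Several genes, from the bone lists and from outside them, stood higher in Ibsp-led spots. They were picked after their values were seen. Dmp1 was at 133 CPM there and 36.3 in osteocalcin-led spots, a ratio of 3.68 (2.32 to 6.04). Panx3 was at 215 and 60.4 CPM, a ratio of 3.56 (2.49 to 5.19). Ifitm5, one of the ranking genes, was at 531 and 159 CPM over all 36 and 64 spots. Slc8a3 was at 2.63, Slc13a5 at 2.15, Smpd3 at 1.90, Alpl at 1.82 and Pth1r at 1.84. Col9a1, a cartilage collagen chain, and Tcf7 were both at 3.51. Cspg4, a proteoglycan of pericytes and progenitors, was at 6.14 (3.60 to 11.2). Of the 9 measured members of its list, pericyte and smooth muscle, Cspg4 was the only 1 above 1, and 5 were at least 2-fold lower. The level of the main matrix genes did not follow the division, with Col1a1 at 0.852 and Col11a2 at 0.786. As lists, the mineral deposition genes took 0.176% and 0.104% of UMIs, a ratio of 1.69, with 4 of 8 measured members above 1, 2 at least 2-fold higher and 1, the phosphate transporter Slc20a2, lower at 0.383. The ratio of summed UMIs was 1.31 for transcription factors, 1.20 for osteocyte genes, 1.37 for cartilage genes and 0.915 for non-collagen matrix genes. The part of cartilage cells in the levels of Panx3 and Col9a1 was not tested.

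Dividing-cell genes were also higher in Ibsp-led spots: 12 of 12 cell cycle genes were above 1, 2 of them at least 2-fold, with a median log2 ratio of 0.52, beside 0.06 over all genes. Over all 36 and 64 spots, 3 of the 12 reached 20 CPM in Ibsp-led spots alone, so they were higher there by that choice. Mki67 was at 2.04 (1.30 to 3.27). Other single genes stood higher in osteocalcin-led spots. Mgp was at 2029 CPM there and 767 in Ibsp-led spots, a ratio of 0.378 (0.340 to 0.419), and Igfbp5, an IGF-binding protein of bone, at 752 and 286. Cxcl12, a chemokine of marrow stroma, was at 0.291, Sfrp4, a Wnt antagonist, at 0.120, and Comp, a cartilage and tendon matrix protein, at 0.234. Of the pericyte and smooth muscle list 5 of 9 members were at least 2-fold lower, and its summed UMIs were at 0.520, while 3 of 12 fibroblast genes were at least 2-fold lower with summed UMIs at 1.12, and 1 of 11 endothelial genes with summed UMIs at 0.681. Phex had 3.03 CPM in Ibsp-led and 16.6 in osteocalcin-led spots, so the Ibsp-led spots held less of it, although few UMIs stand behind these levels.

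**Figure D5:**
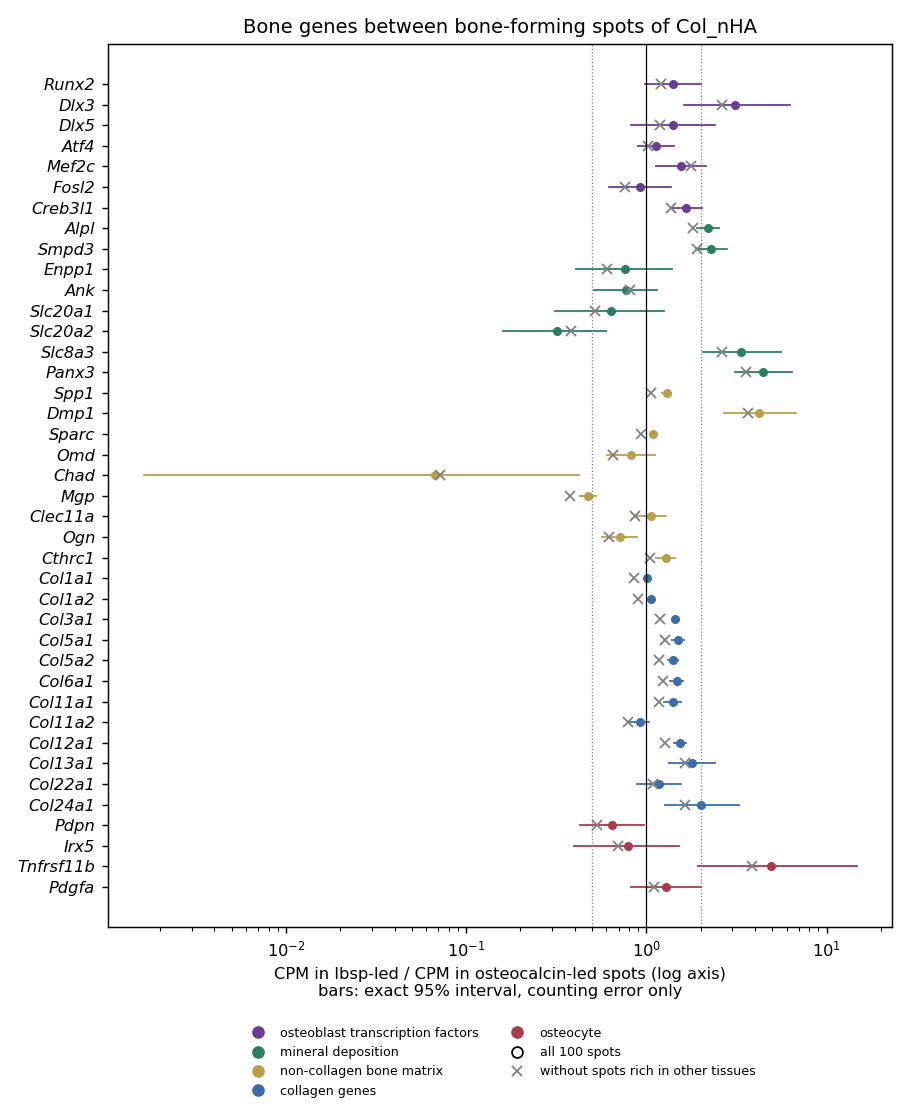
Ratio of the level in the 36 Ibsp-led to that in the 64 osteocalcin-led bone-forming spots of Col_nHA (log x axis) for bone list genes, coloured by list with 95% counting intervals; crosses leave out spots rich in other tissues. Dmp1 and Panx3 lie to the right, Slc20a2, Mgp and Chad to the left, and Col1a1 near 1.

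With the Ibsp-led spots set aside, the comparison of sections changed for part of the bone genes. Of 6703 genes counted, 501 stood at least 2-fold higher in Col_nHA (7.47%) and 241 lower (3.60%). Among osteocalcin-led spots Panx3 was at 0.813 (0.535 to 1.22) of its Blank level, Alpl at 0.814, Smpd3 at 0.621 and Dmp1 at 0.401. The osteocyte genes took 0.0256% of UMIs there in Col_nHA and 0.0412% in Blank, a ratio of 0.622, and the collagen list had a median log2 ratio of -0.59. Panx3 and Alpl, which were higher in Col_nHA over all 100 spots, were thus not so among osteocalcin-led spots, while Col1a1, at 0.579, hardly moved. These Col_nHA spots still included the 12 rich in muscle genes. The skeletal muscle list took 2.80% of their UMIs, against 0.0255% in Blank. Without spots rich in other tissues, the Col_nHA shares were 0.0290% for osteocyte genes and 14.1% instead of 11.8% for collagen genes. The part of muscle RNA in the ratios of this paragraph was not tested.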

How the data were processed

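Spatial RNA of 2 sections of mouse calvarial bone was measured, 1 per group. Per the submitters' processing notes the authors used Space Ranger with build mm10. The sources used here do not give its version. Cell Ranger 4 is named per the file headers. The authors deposited unnormalised UMI counts for each gene in each barcode, without a filter for tissue. The labels call the libraries spatial, while their extraction text describes a droplet library, and the 4992 barcodes per file fit the former. Neither images nor array positions entered the work, so spots have no location here.

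Of 31053 gene IDs, 30934 matched the name table. UMIs were summed over the spots of a set and scaled to CPM. Genes with at least 20 CPM in either set were counted at 2-fold, and the 5 markers were left out of the counts. Intervals are exact 95% intervals (conditional binomial for ratios, Clopper-Pearson for shares) that cover counting error only, and a gene with 0 UMIs in a set was put at 3 counts. Lists (31, with 358 of 360 symbols found) are given by summed UMIs over members found, and by counts and medians over measured members, where there were at least 4. The rule for named genes took, among genes with at least 50 CPM, the 15 highest ratios per section and the 12 highest and 12 lowest between sections, leaving aside mitochondrial, ribosomal, haemoglobin and nameless ones, plus the 2 most abundant and the 2 furthest from 1 of every list. Other list members, and Ibsp-led spots with the genes named for them, were picked after their values were seen. Some genes that enter the counts and medians are not reported here by name or in the plots. Members and lists were chosen with earlier results of these data known. Spots with over 2% of UMIs in muscle, skin, fat or brain lists were called rich in other tissues.

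Deeper sets give narrower intervals. The calculations were tested on simulated data. Doublets were not called, since a spot is no cell. Calculations ran in Python 3.11.15 on scipy 1.17.1, numpy 2.4.6 and pandas 2.3.3, and plots in matplotlib 3.10.9. TMM factors, and nothing else, came from edgeR 4.0.16 in R 4.3.3. Alternatives were other numbers of spots, scores, UMI and CPM minimums, scalings and thinning depths.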

Additional observations from a re-analysis of the deposited data

Results flagged for a closer look

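In 3 of the genes named by rule the ratio of bone-forming to other kept spots was at least 2-fold from 1 in both sections, in opposite directions; the difference was not tested, since each group held 1 library. Igkc, the immunoglobulin kappa constant gene of plasma cells, was at 11.0 in Blank, from 49 UMIs in 15 spots, and at 0.378 in Col_nHA, from 1 UMI. Mb, myoglobin, was at 0.0335 in Blank and 2.09 in Col_nHA, where 3 spots held 39.5% of its UMIs. Ttr was at 0.117 in Blank and 34.6 in Col_nHA, where the bone-forming spots held 15 of 26 UMIs and a single spot, at rank 18, held 11.

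Barcodes below the UMI minimum, outside every comparison above, also held marker UMIs, at 1484 CPM in Blank and 965.3 in Col_nHA, against 257.6 and 194.1 in other kept spots. They held 17.6% and 17.8% of all marker UMIs. Of those with at least 500 UMIs, 152 of 2557 in Blank (5.94%) and 254 of 2335 in Col_nHA (10.9%) reached the score of the 100th bone-forming spot.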

How the results depend on the processing

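With 1 library per group, intervals and alternatives say nothing of variation between animals. No paired analysis was possible because each group held 1 sample. Of the counts of genes, 119 stayed within 1.5 times of the reported value and 34 did not; where a setting tests fewer or more genes or spots, that construction moves the count, and otherwise the cause was not tested. With a 50 CPM minimum the genes higher and lower in bone-forming spots numbered 82 and 280 in Blank, 81 and 220 in Col_nHA and 57 higher in both. Between sections they were 143 and 44, and for Ibsp-led spots 98 and 193. A 10 CPM minimum gave 1203 lower in Blank, 692 lower in Col_nHA, 678 and 293 between sections, and 796 and 763 for Ibsp-led spots. With the 50 highest spots, 1146 and 682 genes were lower in Blank and Col_nHA, 215 were lower between sections and 658 higher in Ibsp-led spots, and with 200 spots 389 and 245 were lower. TMM gave 424 and 269 lower, and median-of-ratios 413, 240 and, between sections, 214 lower, with 237 higher in Ibsp-led spots. The same lowest score gave 646 lower in Col_nHA and 621 higher in Ibsp-led spots, and the mean of per-spot CPM 223 lower between sections. A score without Ibsp gave 811 and 821 for Ibsp-led spots, one without osteocalcin 247 lower, and ranking without spots rich in other tissues 243 higher.

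Changes of sign were counted only where the reported value was at least 2-fold from 1. Under the alternatives 7 such list medians changed sign, all of the neutrophil list. Between sections it was 0.60 with 50 spots, 1.5 without osteocalcin in the score and 0.58 with a raised UMI minimum. For Ibsp-led spots it was -0.05 with 200 spots, and -1.96, -0.14 and -0.41 without osteocalcin, with a raised minimum and without spots rich in other tissues. Enpp2 in Blank was 0.10 and 0.11 (log2) without spots rich in other tissues. Igkc in Col_nHA was 1.06, 0.15, 0.36, 1.01, 0.15 and 0.17 with 50 spots, without osteocalcin, without Ibsp, at the same lowest score, with a raised minimum and without spots rich in other tissues. Mb in Col_nHA was -0.49, -1.75 and -0.54 with 50 spots, without osteocalcin and at the same lowest score. Ngp between sections was 1.52 without osteocalcin and 0.73 with a raised minimum. Phex between sections lay between -2.62 and -1.86. Of values of named genes, 5107 stayed within the counting interval of the reported value, 1561 lay outside it and 13 changed sign. Of list medians, 1739 stayed within the spread of their members, 112 did not and 7 changed sign. Of shares of spots with a UMI, 5 stayed within the reported interval and 19 did not. Another thinning depth, or none, moves such a share by construction.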

Other observations

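Of the 106 genes at least 2-fold higher in bone-forming spots of both sections, 73 were on none of the lists. Among them were Fat3, a large cadherin, Ostn, a peptide hormone made by bone and muscle, Bambi, a decoy receptor of the TGF-beta family, Cdh2, N-cadherin, Cadm1, an adhesion protein of osteoblasts, and Lifr, a cytokine receptor. They were chosen after their values were seen. Cadm1 stood at 141.4 CPM in Blank bone-forming spots and 16.3 in other kept spots, Bambi at 137.1 and 18.9, Cdh2 at 155.3 and 31.7 and Lifr at 131 and 34.7. Of the 106 genes, 70 matched 104 promoter windows of RefSeq, of which 8.65% held the Runx core ACCACA or its reverse, beside 16.8% of all windows.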
